A study of Mus musculus with 24 samples.

Results

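The 9 genes followed here are chaperones and stress genes of the cytosol and the endoplasmic reticulum: Hspa1a, Hspa1b, Hsph1, Dnajb1, Hspb1, Hspa8, Hsp90aa1, Hspa5 and Ddit3. They were taken by symbol from a count table of 55418 genes, of which 25372 passed the filter on low counts, all 9 among them, and 7 of them belong to the cytosolic heat shock response and 2 to the unfolded protein response of the endoplasmic reticulum. Levels were measured by RNA sequencing of lumbar spinal cord (segments L4 to L6) from 24 C57BL/6J mice, 12 of each sex, which were 8 to 10 weeks old at the start. The mice were wild-type or carried a knockout of Chrna7, the alpha7 nicotinic acetylcholine receptor gene, limited to myeloid cells, and its driver is not named in the sources used here. Each genotype received vehicle (Kolliphor, ethanol and water) or paclitaxel, a taxane that stabilises microtubules and causes painful neuropathy, at 1 mg per kg in 4 injections. RNA was taken on day 7, and each of the 8 groups of genotype, sex and treatment held 3 mice.

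Cells answer misfolded protein in the cytosol through the transcription factor HSF1, which binds heat shock elements and raises inducible chaperones such as HSP70, HSP110 and their J-domain partners. Misfolded protein in the endoplasmic reticulum is sensed by IRE1, PERK and ATF6. The ATF6 branch raises BiP, encoded by Hspa5, through the endoplasmic reticulum stress element, and the PERK branch raises CHOP, encoded by Ddit3, through ATF4. Both programmes have been studied in injured neurons and glia.

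The libraries held 88812295 to 112158154 counts. One of them, wild-type female paclitaxel replicate 3 (library 23), resembled a sensory ganglion: markers of dorsal root ganglion neurons summed to 4080 CPM (counts scaled to a library total of 1000000) there against 61.0 to 114 CPM in the other cords, and markers of astrocytes to 433 against 6875 to 7796 CPM. This library was left out of the tests and is described at the end, so the comparisons rest on 23 cords. Chrna7 lay at 9.09 to 15.9 CPM in these cords, and a deletion in myeloid cells only is not readable from whole tissue. In whole tissue, fewer cells of a type and less RNA per cell cannot be told apart.

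Promoter sequences were available for 7 of the 9 genes, and those printed here held a match to an element of the stress pathways. Windows of 300 bases (250 before and 50 after the start) were taken from RefSeq (GRCm38.p6) and searched on both strands for exact matches. The heat shock element was searched as 3 alternating units of GAA and TTC with 2 free bases between neighbours, starting with either unit, and as 2 such units, GAANNTTC or TTCNNGAA, so that each match of 3 units also holds matches of 2 units. The endoplasmic reticulum stress element was searched as CCAAT and CCACG with 9 free bases between them, and the C/EBP-ATF element as TGATGNAAT. Of 32851 promoter windows, 0.603% held 3 units, 15.1% held 2 units, 0.119% held the endoplasmic reticulum stress element and 0.965% held the C/EBP-ATF element. The 250 bases before the start follow, 5′ to 3′ on the strand of the gene, with the fixed letters of each match in capitals.
Hspa1a (chr17:34972157-34972406, minus strand): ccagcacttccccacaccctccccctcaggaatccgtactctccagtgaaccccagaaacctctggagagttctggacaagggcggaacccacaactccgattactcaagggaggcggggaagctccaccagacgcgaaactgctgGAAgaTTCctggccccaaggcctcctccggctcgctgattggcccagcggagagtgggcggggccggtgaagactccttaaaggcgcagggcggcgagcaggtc
Hsph1 (chr5:149636337-149636586, minus strand): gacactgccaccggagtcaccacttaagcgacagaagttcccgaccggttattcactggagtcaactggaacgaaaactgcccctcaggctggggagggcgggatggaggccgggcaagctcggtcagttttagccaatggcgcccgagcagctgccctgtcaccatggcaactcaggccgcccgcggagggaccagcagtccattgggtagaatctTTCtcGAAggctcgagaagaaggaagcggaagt
Hspb1 (chr5:135887669-135887918, plus strand): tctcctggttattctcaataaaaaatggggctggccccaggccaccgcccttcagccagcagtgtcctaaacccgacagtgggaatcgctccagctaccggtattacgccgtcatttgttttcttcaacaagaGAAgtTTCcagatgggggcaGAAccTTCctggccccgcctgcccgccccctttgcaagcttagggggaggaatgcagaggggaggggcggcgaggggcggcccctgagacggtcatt
Hspa5 (chr2:34771840-34772089, plus strand): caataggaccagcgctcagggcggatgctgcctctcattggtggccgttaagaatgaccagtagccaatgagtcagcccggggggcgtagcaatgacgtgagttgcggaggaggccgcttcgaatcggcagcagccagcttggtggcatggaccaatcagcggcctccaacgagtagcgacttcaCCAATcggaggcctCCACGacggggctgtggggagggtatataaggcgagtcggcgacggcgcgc

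Hspa1a and Hspa1b each held 1 match of 2 heat shock units, GAAGATTC, at 104 to 97 bases before the start. Their 300-base windows differed at 4 positions (98.7% identity), and the Hspa1b window is therefore not printed. Hspb1 held 2 matches of 2 units. Hsph1 held 3 units only after its start, as TTCTGGAAAGTTC at 36 to 48 bases past it, and 2 units as TTCTCGAA before it. Hspa5 held the endoplasmic reticulum stress element, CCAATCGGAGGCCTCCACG, at 65 to 47 bases before the start. Neither Dnajb1 (both listed starts) nor Ddit3 held any of these letters in its window. The same search over the gene lists of the pathways found the endoplasmic reticulum stress element in 8 of 17 genes for chaperones and degradation factors of the endoplasmic reticulum (Hspa5, Hsp90b1, Calr, Canx, Pdia6, Dnajc3, Creld2 and Syvn1) and in 0 of 21 cytosolic chaperone genes.

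The annotation limits 5 of the members. Hspa1a (chromosome 17, 34969190 to 34972156, minus strand, GRCm38) and Hspa1b (34956436 to 34959238) are intronless neighbours, 9951 bases apart. The other members are spliced genes: Hsph1 at chr5:149614287-149636376 (minus strand), Dnajb1 at chr8:83608193-83612653 (plus), Hspb1 at chr5:135887919-135889563 (plus), Hspa8 at chr9:40800984-40810087 (plus), Hsp90aa1 at chr12:110690605-110702728 (minus), Hspa5 at chr2:34771970-34777547 (plus) and Ddit3 at chr10:127290774-127296288 (plus). Of all 100-base stretches of the exons, 47.1% of Hspa1a and 49.9% of Hspa1b recur exactly in the other gene, and reads from such stretches map to both places. Hspb1 shares 44.0% of its stretches with the pseudogene Hsp25-ps1, Hsp90aa1 38.0% (most with Gm12346) and Hspa8 28.5% (most with Gm15459). Hsph1, Dnajb1, Hspa5 and Ddit3 share none. No option for reads that map to several places was set in the counting, and featureCounts leaves such reads out by default. Levels of the 5 genes with shared stretches are therefore uncertain and may be too low. Reads were counted without strand, and 19.01% of the Hspa1a exon overlaps Gm20481 and 4.73% of the Ddit3 exons overlap Mars and Gm4189, all on the opposite strand.

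Hspa8 and Hsp90aa1 had the highest levels of the 9 genes. Hspa8, the constitutive HSP70, had a median of 1545 CPM (1322 to 1682) over the 23 cords and Hsp90aa1, the alpha isoform of cytosolic HSP90, 1298 CPM (1174 to 1419.7). Per kilobase of exon, the medians were 359 CPM for Hspa8, 330.1 for Hsp90aa1, 56.2 for Hspa5, 38.4 for Hsph1, 14.5 for Dnajb1, 12.7 for Ddit3, 11.5 for Hspb1, 0.485 for Hspa1a and 0.434 for Hspa1b. On this scale the ranges of Hspa8 and Hsp90aa1 overlapped, as did those of Dnajb1, Ddit3 and Hspb1 and those of Hspa1a and Hspa1b, while Hspa5 (50.8 to 69.4 CPM per kilobase) lay above Hsph1 (30.8 to 43.9) in all cords. In reads, the inducible HSP70 genes held 75 to 270 counts (Hspa1a) and 44 to 314 counts (Hspa1b) per library.

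The members differed in how far cords of one group spread. The SD of log2 CPM around the group means was 0.63 for Hspa1b and 0.43 for Hspa1a, wider than in 99.6% and 98.8% of 15872 genes with a mean of at least 1 CPM. Counting error of a Poisson kind at their mean counts gives 0.13 and 0.12. Hspb1 followed with 0.28 (wider than 94.0% of genes), Dnajb1 with 0.16 and Hsph1 with 0.13. Hspa5 had 0.12, Ddit3 0.11 and Hspa8 0.092, and Hsp90aa1 was the tightest with 0.063 (wider than 16.99% of genes). The inducible HSP70 genes therefore varied most between mice of the same group, and Hspa8 and Hsp90aa1 least.

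**Figure D1:**
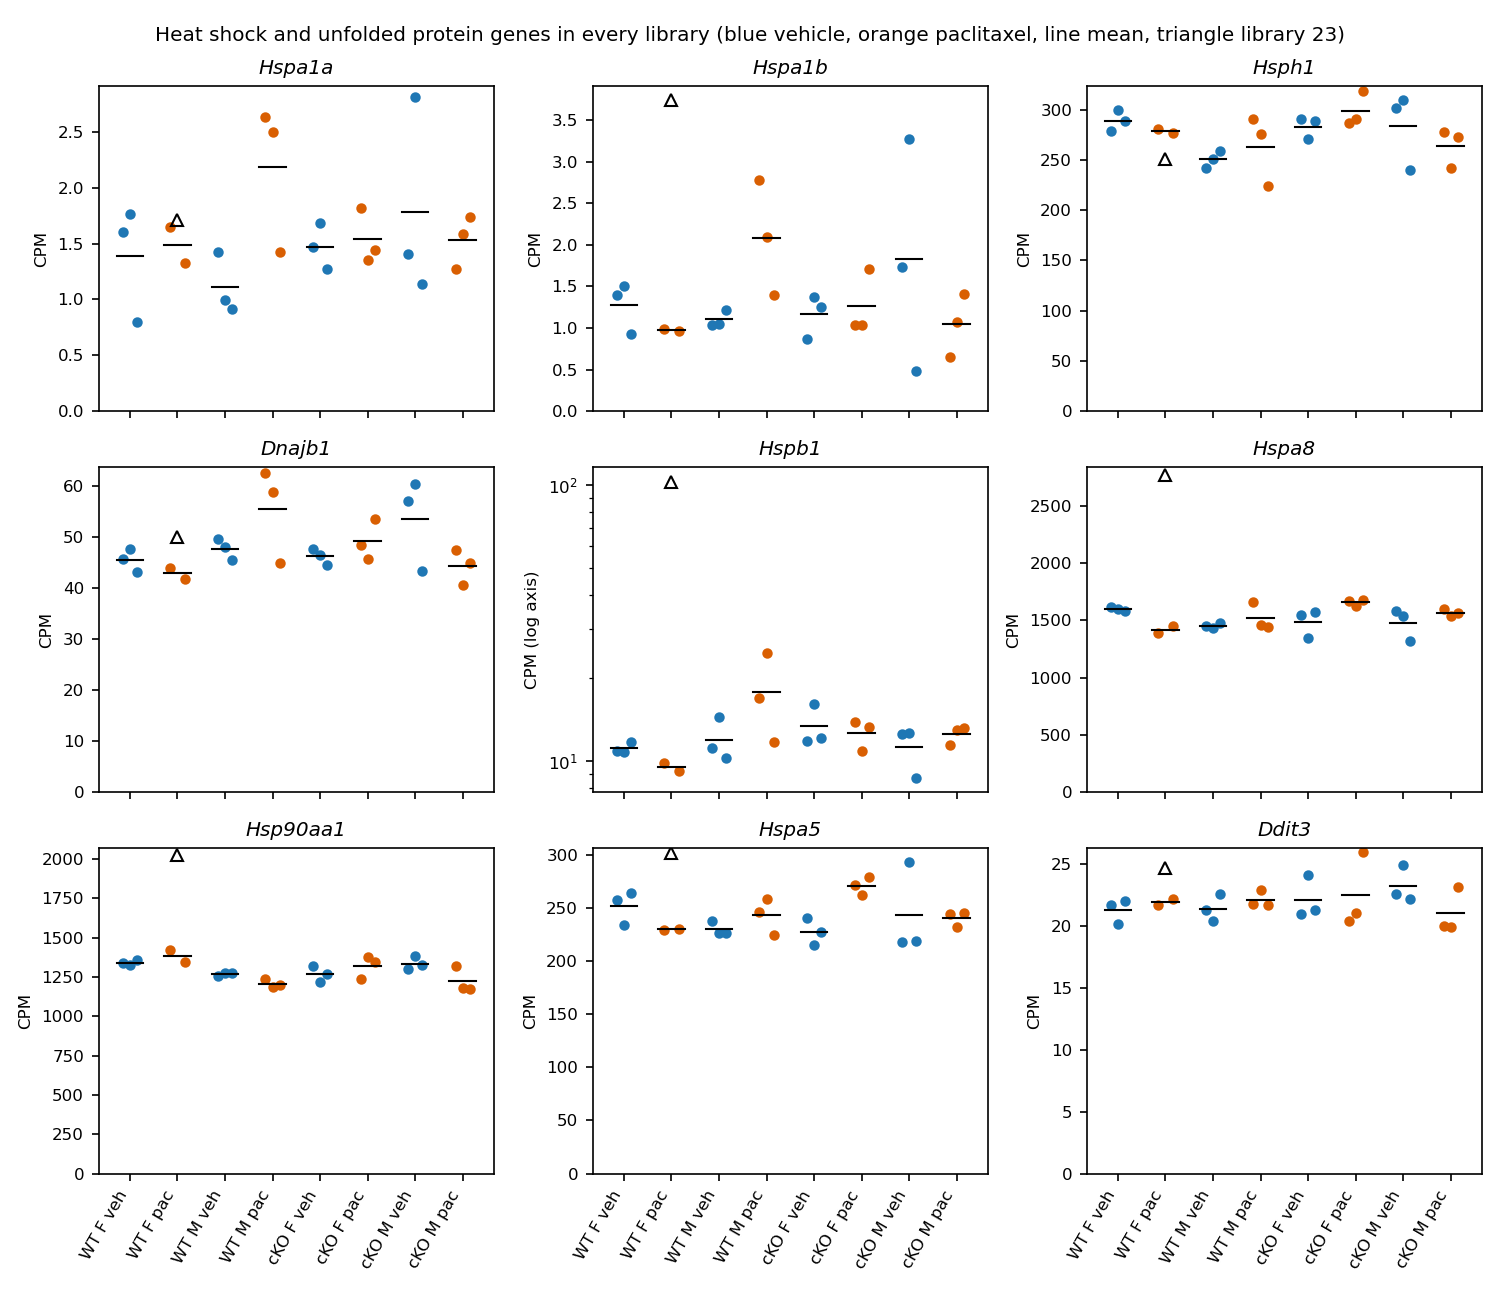
CPM of each gene in every library, with 1 panel per gene (Hspb1 on a log axis) and the 8 groups along the x axis (WT wild-type, cKO myeloid Chrna7 knockout, F female, M male, veh vehicle, pac paclitaxel). Points are mice, lines are group means over the cords, and the triangle is library 23, which lies at 102.5 CPM for Hspb1 against at most 24.6 CPM in the cords.

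No member passed the test for paclitaxel, for the knockout or between the sexes. Over 12 comparisons of the 23 cords, which included the 3 interactions of paired factors, edgeR called 0 of 9 members in each at an adjusted p under 0.05 (Benjamini-Hochberg over 25372 genes). At an unadjusted p under 0.05 there were 11 member results. By comparison, the smallest adjusted p was 0.178, for Hsp90aa1 under paclitaxel in males. Without the filter on low counts (41809 genes) edgeR called 6: Hspb1 for paclitaxel in males, between the sexes and in both interactions with sex, and Hsph1 and Dnajb1 between the sexes. In that fit 5.55% of all genes were called in males, 1.79% between the sexes, 5.22% for sex and treatment and 1.94% for sex and genotype. DESeq2, where it gave an adjusted p, and limma voom called 0 as well. The share of all tested genes called was 0.0197% for paclitaxel over all cords, 0% in wild-type, 0.0236% in knockout, 0.00394% in females and 6.69% in males. It was 0.0118% for knockout against wild-type over all cords, 0.00788% under vehicle and 0.00394% under paclitaxel, and 0.918% for males against females. For the interactions it was 0% for genotype and treatment, 4.96% for sex and treatment and 0.00394% for sex and genotype, so a count of 0 among 9 members was near the background in every comparison. At an unadjusted p under 0.05 the shares of all genes, in the same order, were 10.2%, 7.97%, 11.3%, 9.37%, 20.9%, 3.36%, 5.2%, 6.18%, 13.2%, 8.41%, 20.3% and 12.6%.

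Counting the members whose vehicle and paclitaxel cords lay apart gives 3 of 9 in wild-type females, all lower (Hspb1, Hspa8 and Hspa5), beside 34.2% of all tested genes, and here only 2 paclitaxel cords enter. In wild-type males it gives 3 of 9, of which Hspa1a and Hspa1b were higher and Hsp90aa1 lower, beside 16% of genes. In knockout females it gives 2 of 9, both higher, beside 11.8%, and in knockout males 0 of 9 beside 19.8%. Over all cords of a treatment, genotype or sex, the ranges of every member overlapped, beside non-overlap in 0% of genes for treatment, 0.00394% for genotype and 0.0749% for sex.

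Hspa1a encodes the inducible HSP70. Its vehicle cords held 1.599, 1.76 and 0.802 CPM in wild-type females, 1.42, 0.998 and 0.913 in wild-type males, 1.46, 1.68 and 1.27 in knockout females and 1.41, 2.81 and 1.14 in knockout males. Paclitaxel cords held 1.64 and 1.32 CPM in wild-type females, 2.63, 2.50 and 1.43 in wild-type males, 1.82, 1.35 and 1.44 in knockout females and 1.27, 1.59 and 1.74 in knockout males. The highest 3 cords were all male: knockout male vehicle replicate 2 and wild-type male paclitaxel replicates 1 and 2. The paclitaxel difference in wild-type, 1.90 ± 0.615 CPM (SD, n = 5) against 1.25 ± 0.397 CPM (SD, n = 6), gave 0.53, SE 0.24 on the log2 scale (unadjusted p = 0.0372, edgeR adjusted p = 0.599). In knockout it was -0.078, SE 0.22 (edgeR adjusted p = 0.939), and the interaction of genotype and treatment, knockout minus wild-type, was -0.60, SE 0.32 (edgeR adjusted p = 0.622). Without knockout male vehicle replicate 2 that interaction was -0.36 on the log2 scale and the knockout value turned from -0.078 to 0.17.

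Hspa1b, the second inducible HSP70 gene, held 2.77, 2.09 and 1.39 CPM in wild-type males under paclitaxel and 1.04, 1.05 and 1.22 under vehicle. In knockout males it held 1.73, 3.27 and 0.486 CPM under vehicle, and 0.65, 1.07 and 1.41 under paclitaxel. Knockout male vehicle replicate 2 was the highest and replicate 3 the lowest of all cords, and females lay between 0.868 and 1.71 CPM. Its paclitaxel log2 fold change over all cords was -0.046, SE 0.25, with a 95% interval of -0.56 to 0.47, and its difference between males and females was 0.31, SE 0.25 (edgeR adjusted p = 0.644). Of the 9 genes Hspa1b had the widest intervals.

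Dnajb1, the J-domain cofactor of HSP70, was high in the same cords. It held 62.6, 58.8 and 44.8 CPM in wild-type males under paclitaxel against 49.6, 48.0 and 45.5 under vehicle, and 57.1, 60.3 and 43.4 CPM in knockout males under vehicle against 47.5, 40.6 and 44.8 under paclitaxel. Its highest 3 cords were the highest 3 of Hspa1a. Female cords held 41.7 to 53.6 CPM. The paclitaxel log2 fold change was -0.016, SE 0.064 over all cords, 0.056, SE 0.093 in wild-type and -0.089, SE 0.088 in knockout, and the interval over all cords ran from -0.15 to 0.12.

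Hsph1, the HSP110 exchange factor of HSP70, ranged from 223.9 CPM in wild-type male paclitaxel replicate 3 to 319 CPM in knockout female paclitaxel replicate 3. Its paclitaxel log2 fold change over all cords was -0.0039, SE 0.050 with a 95% interval of -0.11 to 0.10. Males held 266 ± 26.8 CPM (SD, n = 12) and females 288 ± 12.9 CPM (SD, n = 11), which is -0.12, SE 0.050 on the log2 scale (unadjusted p = 0.0296, edgeR adjusted p = 0.313), and the ranges of the sexes overlapped. Without the filter on low counts that edgeR adjusted p was 0.0100, while DESeq2 with the filter gave an adjusted p of 0.158.

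Hspb1, the small heat shock protein HSP27 that sensory and motor neurons express, held 16.9, 24.6 and 11.7 CPM in wild-type males under paclitaxel and 11.2, 14.5 and 10.3 under vehicle. Wild-type females held 10.9, 10.82 and 11.7 CPM under vehicle and 9.83 and 9.20 in their 2 paclitaxel cords. Knockout cords held 11.9, 16.1 and 12.1 CPM in vehicle females, 13.9, 10.9 and 13.3 in paclitaxel females, 12.5, 12.7 and 8.73 in vehicle males and 11.5, 12.96 and 13.2 in paclitaxel males. Only wild-type male paclitaxel replicates 1 and 2 and knockout female vehicle replicate 2 exceeded 15 CPM. The paclitaxel log2 fold change was 0.37, SE 0.16 in males (edgeR adjusted p = 0.192) and -0.16, SE 0.17 in females, with an interaction of sex and treatment of 0.53, SE 0.23 (edgeR adjusted p = 0.204). The interaction of sex and genotype, male minus female response to the knockout, was -0.65, SE 0.23 (unadjusted p = 0.013, edgeR adjusted p = 0.273). Without wild-type male paclitaxel replicate 3, Hspb1 was called in males at 0.48 on the log2 scale (edgeR adjusted p = 0.0228) and in the interaction of sex and treatment at 0.65 (edgeR adjusted p = 0.0359), beside 8.11% and 6.51% of all genes, and without replicate 2 of that group the male value was 0.21. Without the filter on low counts the male value of 0.37 had an edgeR adjusted p of 5.85e-06. With the filter it was not called by DESeq2 (adjusted p = 0.0967) or by edgeR with a replicate block (adjusted p = 0.15).

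The level of Hspb1 moved across cords with a sum of 10 markers of ganglion neurons that consisted mostly of 1 gene. The marker Prph made up most of that sum, with 47.2 to 99.9 CPM (median 60.2) beside a median sum of 74.5 CPM. Scn10a, another of these markers, had at most 0.728 CPM in the cords, so the sum mainly followed Prph. Wild-type male paclitaxel replicate 2, the highest cord for Hspb1, also had the highest sum of the 10 markers, 114 CPM, and wild-type male vehicle replicate 2, the highest wild-type vehicle cord for Hspb1, had 93.1 CPM, the highest of the vehicle cords. As deviations from group means, Hspb1 and the log2 sum of these markers had Pearson r 0.76 and Spearman rho 0.62 over the 23 cords. Leaving out 1 cord at a time gave r from 0.66 to 0.79, and leaving out the 2 cords farthest from the median sum gave 0.60. Of 15863 genes, 99.8% had a lower r with that sum, and the other members had r from -0.20 (Hsp90aa1) to 0.29 (Dnajb1). This relation was examined after the values were seen, and the points share library scaling. As the sum mainly followed Prph, it is no measure of ganglion RNA by itself. The part of ganglion RNA, or of cord cells with Prph, in the Hspb1 differences was not tested.

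Hspa8 was not called in any comparison, and its female cords lay apart by treatment in both genotypes, in opposite directions. Of all tested genes, 34.2% lay apart in wild-type females, with only 2 paclitaxel cords, and 11.8% in knockout females. Knockout females held 1545, 1349 and 1572 CPM under vehicle and 1669, 1626 and 1682 under paclitaxel, and wild-type females 1619.9, 1599.8 and 1578 under vehicle and 1387 and 1451 under paclitaxel. In males the values were 1455, 1434 and 1478 (wild-type vehicle), 1661, 1463 and 1442 (wild-type paclitaxel), 1581, 1541 and 1322 (knockout vehicle) and 1603, 1535 and 1562 CPM (knockout paclitaxel). Paclitaxel cords of knockout females all lay above their vehicle cords and those of wild-type females all below, while the ranges overlapped in both genotypes of males. The log2 fold change under paclitaxel was 0.12, SE 0.048 in knockout (unadjusted p = 0.0159, edgeR adjusted p = 0.324) and -0.065, SE 0.051 in wild-type (edgeR adjusted p = 0.777). Their difference was 0.19, SE 0.070 (unadjusted p = 0.012, edgeR adjusted p = 0.512). Under paclitaxel the knockout held 1613 ± 58.1 CPM (SD, n = 6) and wild-type 1481 ± 105 CPM (SD, n = 5) (edgeR adjusted p = 0.79). With library 23 included, the difference between the responses was -0.034.

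Hsp90aa1 had a lower mean in males, 1259 ± 65.5 CPM (SD, n = 12) against 1322 ± 60.1 CPM (SD, n = 11), at an unadjusted p of 0.00899 that did not pass adjustment (log2 fold change -0.080, SE 0.028, edgeR adjusted p = 0.189). Wild-type males held 1256, 1272 and 1273 CPM under vehicle and 1238, 1187 and 1198 under paclitaxel, which do not overlap. Knockout males held 1298, 1380.5 and 1327 and 1318, 1183 and 1174 CPM, which do. The paclitaxel log2 fold change in males was -0.090, SE 0.039 (edgeR adjusted p = 0.178), and over all cords the interval was -0.084 to 0.033, the narrowest of the 9 genes.

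Hspa5, which encodes the endoplasmic reticulum chaperone BiP, held 240.1, 215 and 227 CPM in vehicle and 271, 262 and 279 in paclitaxel knockout females. Wild-type females held 258, 234 and 264 CPM under vehicle and 229 and 230.4 under paclitaxel. Thus paclitaxel cords lay apart above in knockout females and apart below in wild-type females, as for Hspa8. The shares of all tested genes that lay apart there were 11.8% and 34.2%. Males held 238, 226 and 227 (wild-type vehicle), 246, 258 and 225 (wild-type paclitaxel), 218, 293 and 219 (knockout vehicle) and 244, 232 and 245 CPM (knockout paclitaxel), with overlap in both genotypes. The paclitaxel log2 fold change was 0.12, SE 0.060 in knockout (edgeR adjusted p = 0.463) and -0.037, SE 0.064 in wild-type (edgeR adjusted p = 0.919). Knockout male vehicle replicate 2 was the highest of all cords, and without it the knockout value was 0.20.

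Ddit3, which encodes the pro-apoptotic factor CHOP, held 19.95 to 25.99 CPM over all cords. Its paclitaxel log2 fold change over all cords was -0.011, SE 0.042 with a 95% interval of -0.097 to 0.074, its knockout value 0.032, SE 0.042 with -0.054 to 0.12, and its male value -0.0043, SE 0.042 with -0.090 to 0.081. Vehicle and paclitaxel cords overlapped in each genotype and sex.

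**Figure D2:**
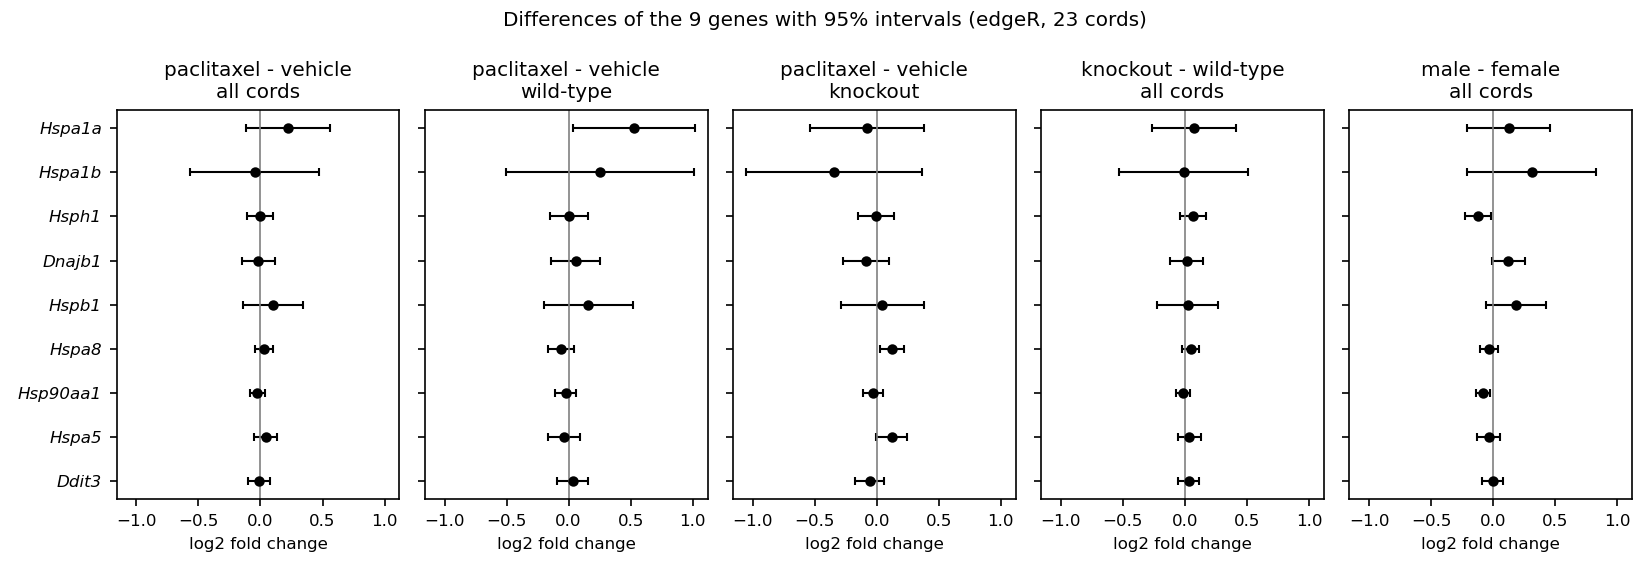
Log2 fold changes (x axis) of the 9 genes (y axis) from the edgeR fit of 23 cords, with 95% intervals, for 5 comparisons named above the panels. Hspa1a and Hspa1b have the widest intervals and Hsp90aa1 the narrowest, and no gene passed an adjusted p of 0.05.

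Library numbers 1 to 12 hold the vehicle females and paclitaxel males and 13 to 24 the paclitaxel females and vehicle males, so the order of the libraries and the interaction of sex and treatment cannot be told apart. Hsp90aa1 had a median of 1253 CPM in the first 12 and 1327 CPM in the other 11 cords, and Hspa8 1567 and 1478 CPM. Every paclitaxel comparison within one sex carries this limit, which covers the female separations of Hspa8, Hspa5 and Hspb1 and the male values of Hspa1a, Hspa1b, Hspb1 and Hsp90aa1.

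Most cytosolic members varied together between cords of a group. As deviations of log2 CPM from group means over the 23 cords, Hsph1 and Dnajb1 had Pearson r 0.91 and Spearman rho 0.83, and r ran from 0.86 to 0.94 with 1 cord left out at a time. Hsph1 and Hspa8 had r 0.80 and rho 0.72, Hspa1b and Dnajb1 0.70 and 0.54, and Hspa1a and Hspa1b 0.70 and 0.56. Without the 2 cords farthest from the median of the first gene, these 4 values of r were 0.81, 0.68, 0.50 and 0.58. Of the cytosolic members Hsp90aa1 stood aside from the inducible HSP70 genes, with r 0.010 to Hspa1a and 0.053 to Hspa1b. It had r 0.44 with Hspa8, the constitutive HSP70, 0.52 with Hsph1, 0.42 with Dnajb1 and -0.13 with Hspb1. The cords share library scaling, and Hspa1a and Hspa1b share long identical stretches.

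Pairs across the compartments had positive r as well. The 21 pairs of cytosolic members had a median r of 0.53 (-0.13 to 0.91), and the 14 pairs of a cytosolic member with Hspa5 or Ddit3 a median of 0.44 (0.064 to 0.61). Hspa5 had r 0.61 with Dnajb1 and 0.60 with Hsph1 and 0.43 with Ddit3. Some of this rested on 1 cord: the r of Hspa1b and Hspa5, 0.53, was 0.087 without knockout male vehicle replicate 2. Ddit3 had r 0.57 with Hspa1b and 0.064 with Hspa8.

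**Figure D3:**
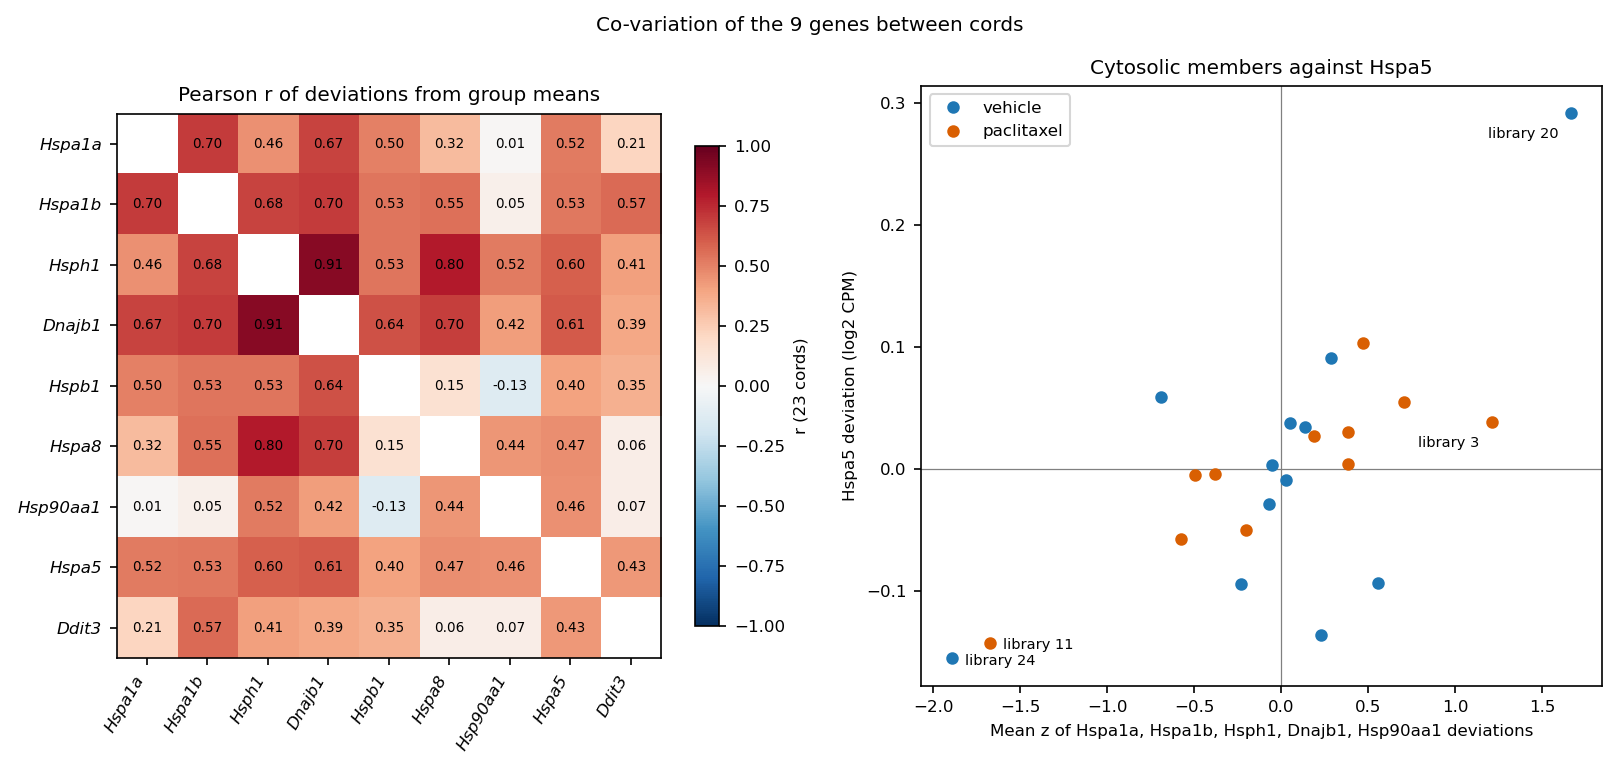
Left, Pearson r of deviations from group means for each pair of genes (color scale from -1 to 1, 23 cords). Right, the Hspa5 deviation in log2 CPM (y axis) against the mean z of 5 cytosolic members (x axis), 1 point per cord, where libraries 20 and 24 (knockout male vehicle replicates 2 and 3) lie at opposite ends.

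Cords with high Hspa1a tended to have high immediate early genes, with exceptions. The 10 immediate early genes, such as Fos, Junb and Egr1, summed to 168 CPM in wild-type male paclitaxel replicate 2 and 155 in replicate 1. The sum was 154 in knockout male vehicle replicate 1 and 132 in replicate 2, within a range of 96.5 to 168 CPM (median 119). Of these cords, knockout male vehicle replicate 1 was not high in Hspa1a, with 1.41 CPM against a cord median of 1.44. Its Hspa1b was 1.73 CPM against a cord median of 1.22. Deviations of Hspa1a and of that sum had r 0.68 and rho 0.71 (0.61 to 0.79 with 1 cord left out, 0.67 without the 2 farthest), and those of Hspb1 r 0.63. A lower r with that sum was found in 97.7% of genes for Hspa1a and 96.4% for Hspb1. Hspa5 had r 0.10 and Ddit3 0.068. With the summed markers of cord neurons, Hspa8 had r 0.71 and rho 0.68 (r 0.65 without the 2 farthest). Hsp90aa1 had r 0.55 and rho 0.49 (r 0.41 without the 2 farthest). A lower r with these markers was found in 98.9% of genes for Hspa8 and 93.6% for Hsp90aa1. These relations too were examined after the values were seen, and the part of cell makeup or of handling in them was not tested.

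Other chaperones mostly had positive r with a mean of 5 cytosolic members and the cold-inducible RNA-binding proteins negative r. With the mean z of Hspa1a, Hspa1b, Hsph1, Dnajb1 and Hsp90aa1, 19 of 20 other genes of the HSF1 and cytosolic chaperone list had a positive r (median 0.57), as had 8 of 8 subunits of the TRiC chaperonin, which folds tubulin and actin (median 0.60), and 17 of 18 endoplasmic reticulum genes (median 0.50). Bag3, an HSP70 cochaperone, had r 0.71. Cirbp and Rbm3, which rise when cells cool, had r -0.69 and -0.54. The median over 15863 genes was 0.048, with 8746 of them positive. Mitochondrial chaperones had a median of 0.66 with 5 of 7 positive, and targets of PERK and ATF4 had 0.046 with 7 of 13 positive. Among all genes the most like this mean were Pak2 (r 0.89), Imp4 (0.88), S1pr1 (0.87), Pdk4 (0.86), Ccdc117 (0.86), Ythdf1 (0.86), Chtf8 (0.85), Me2 (0.85), Cep120 (0.85) and Nup50 (0.84). Their Spearman rho ran from 0.53 (Cep120) to 0.85 (Imp4). The mean z was farthest out in knockout male vehicle replicates 3 (-1.89) and 2 (1.66) and wild-type male paclitaxel replicate 3 (-1.67). How far the r of this paragraph rest on these cords was not tested. The most like Hspa5 were Max (0.83), P4ha1 (0.82), Pdk4 (0.82), Zfp60 (0.81), Tsc22d3 (0.80), Pdia4 (0.80), 9330159F19Rik (0.79), Pdia3 (0.78), Cct4 (0.78) and Kbtbd2 (0.77), of which Pdia4 and Pdia3 are disulfide isomerases of the endoplasmic reticulum and Cct4 is a TRiC subunit.

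No gene of either stress pathway passed for paclitaxel or for the knockout over all cords. Over all cords, 0 of 27 genes of the HSF1 and cytosolic chaperone list passed for paclitaxel (14 positive and 13 negative, median log2 fold change 0.00042), beside a median of 0.0061 over all tested genes. The counts were likewise 0 of 8 for TRiC, 0 of 7 for mitochondrial chaperones, 0 of 19 for endoplasmic reticulum chaperones and degradation, 0 of 4 for the sensors and 0 of 14 for PERK and ATF4 targets. For knockout against wild-type, 0 passed in each of these 6 lists, and the medians lay between 0.0015 and 0.031. The endoplasmic reticulum genes with the smallest p under paclitaxel were Dnajb11 (log2 fold change 0.091, SE 0.033), Edem1 (-0.070, SE 0.028) and Calr (0.094, SE 0.038), with edgeR adjusted p of 0.340, 0.388 and 0.402. Atf3, a stress-induced transcription factor, had -0.25 (SE 0.15, edgeR adjusted p = 0.591). Beside this, 6 of 6 blood genes had a positive sign under paclitaxel (median 0.50) and a negative one in the knockout (median -0.39), with 0 called. Skeletal muscle genes had a positive sign under paclitaxel in 8 of 8 over all cords (median 0.29) and in males (median 1.74), but in 0 of 8 in females (median -1.03) and 1 of 8 in wild-type (median -0.25), and 2 were called in the interaction of sex and treatment (median 2.96). The part of these tissues in the member values was not tested.

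In males alone, 7 genes of these lists passed for paclitaxel, beside 6.69% of all tested genes. The lists hold 27 cytosolic, 8 TRiC, 7 mitochondrial, 19 endoplasmic reticulum, 4 sensor and 14 PERK and ATF4 genes. A count of 7 among them is near the share of all genes. In the cytosolic list, 3 of 27 were higher and 1 lower. Hsp90ab1, the beta isoform of cytosolic HSP90, held 1153 ± 97.2 CPM under paclitaxel and 964 ± 93.2 under vehicle (SD, n = 6 each), with a log2 fold change of 0.27 (SE 0.071) and an edgeR adjusted p of 0.0301. Bag3 was higher by 0.35 (SE 0.092, edgeR adjusted p = 0.0311) and Cdc37, which loads kinases onto HSP90, by 0.14 (SE 0.040, edgeR adjusted p = 0.0327). Hspa4l, an HSP110 relative, was lower, 384 ± 15.2 against 435 ± 24.9 CPM (log2 fold change -0.17, SE 0.039, edgeR adjusted p = 0.0112). Of 19 endoplasmic reticulum genes, Calr, which encodes calreticulin, was higher by 0.18 (SE 0.053, edgeR adjusted p = 0.0361) and Edem1, a degradation factor, had -0.16 (SE 0.038, edgeR adjusted p = 0.0147). Of 14 PERK and ATF4 targets, Vldlr had -0.11 (SE 0.031, edgeR adjusted p = 0.0244). Paclitaxel and vehicle males did not overlap for Hspa4l and Edem1 and overlapped for the other 5.

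The interaction of sex and treatment passed for 5 genes of the same lists, beside 4.96% of all tested genes, again near that share. It was positive for Cdc37 (0.21, SE 0.058), Hsp90ab1 (0.38, SE 0.10) and P4hb, a disulfide isomerase (0.23, SE 0.065), and negative for Hspa4l (-0.21, SE 0.057) and Vldlr (-0.19, SE 0.045), with edgeR adjusted p from 0.0209 to 0.0416. These calls carry the limit of the library order, and with all 24 libraries edgeR called 0 genes in males and 0 in this interaction.

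Between the sexes, Chordc1, an HSP90 cochaperone, was the only gene of the 6 chaperone and unfolded protein lists that passed. This count is near the share of 0.918% of all tested genes. Chordc1 was lower in males, 115 ± 12.8 CPM (SD, n = 12) against 130.5 ± 9.76 CPM (SD, n = 11), a difference of -0.20 (log2, SE 0.041) with an edgeR adjusted p of 0.0203. Its promoter is 1 of 3 in the cytosolic list that hold 3 heat shock units, with those of Hsph1 and Dnajb6. Hsph1 and Dnajb6 were not called between the sexes in this fit. Rbm3 was higher in males, 129 ± 11.4 against 112.9 ± 8.91 CPM (log2 fold change 0.19, SE 0.037, edgeR adjusted p = 0.00937). None of the 10 immediate early genes passed, although 9 of 10 had a positive sign and the median was 0.21.

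**Figure D4:**
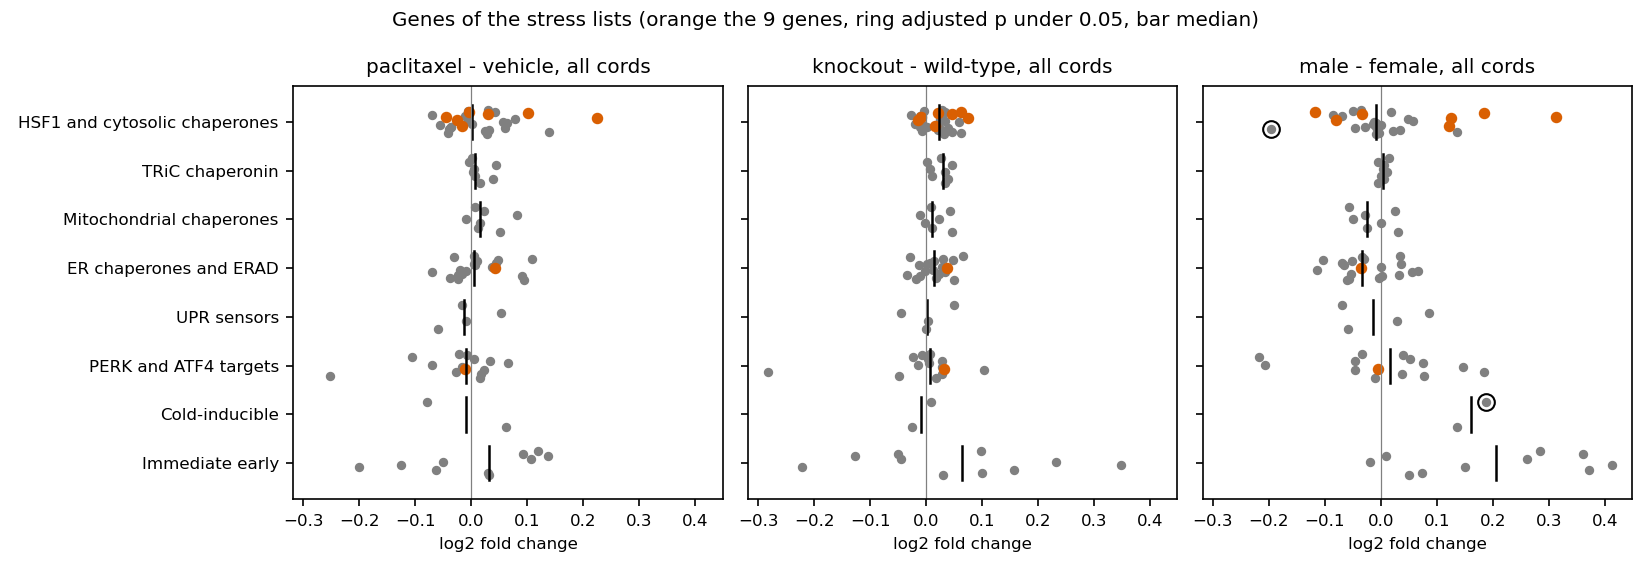
Log2 fold changes (x axis) of every gene of 8 stress lists (y axis) in 3 comparisons over 23 cords, with the 9 genes in orange, medians as bars and rings for an adjusted p under 0.05. Rings surround Chordc1 and Rbm3 alone, in the comparison of males with females.

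In library 23 the members differed in how far they stood from the cords. Hspb1 stood at 102.5 CPM there, 8.63-fold the cord median of 11.9 and above all 23 cords. Hspa1b stood at 3.75 CPM (3.08-fold), Hspa8 at 2764 (1.79-fold), Hsp90aa1 at 2025 (1.56-fold) and Hspa5 at 301.6 (1.27-fold), each above all cords. Hspa1a (1.71 CPM), Hsph1 (251), Dnajb1 (49.97) and Ddit3 (24.7) lay within the range of the cords. So 5 of 9 members exceeded every cord beside 30.2% of 15872 genes, and 0 of 9 lay below every cord beside 43.1%. Hspa1b and its near-identical neighbour Hspa1a thus stood differently to the cords there.

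The chaperone lists of library 23 stood differently to the cords. All 8 TRiC subunits lay above every cord, with a sum of 149% of the cord median. Of 27 genes of the cytosolic list 14 lay above and 3 below every cord (sum 150.01%). Of the endoplasmic reticulum list 7 of 19 lay above and 6 below every cord (sum 107.9%), beside 30.2% and 43.1% of all genes. Of 7 mitochondrial chaperones 3 lay above and 3 below every cord. Their sum of 915.7 CPM lay within the range of the cords (831.8 to 922.4 CPM). All 10 ganglion neuron markers lay above every cord and all 8 astrocyte, 8 oligodendrocyte and 8 microglia markers below. Scn10a, a sodium channel of nociceptors, stood at 772 CPM against at most 0.728, and Gfap of astrocytes at 42.5 against at least 1015 CPM. With library 23 in the fit, edgeR still called 0 of 9 members in each comparison (smallest adjusted p 0.388), beside 0.00809% of genes for the knockout, 0.00404% for the knockout under vehicle, 0.113% between the sexes and 0% in the others, while the paclitaxel log2 fold change of Hspb1 was 0.64 over all animals and 1.25 in wild-type (edgeR adjusted p = 0.653 and 0.453).

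**Figure D5:**
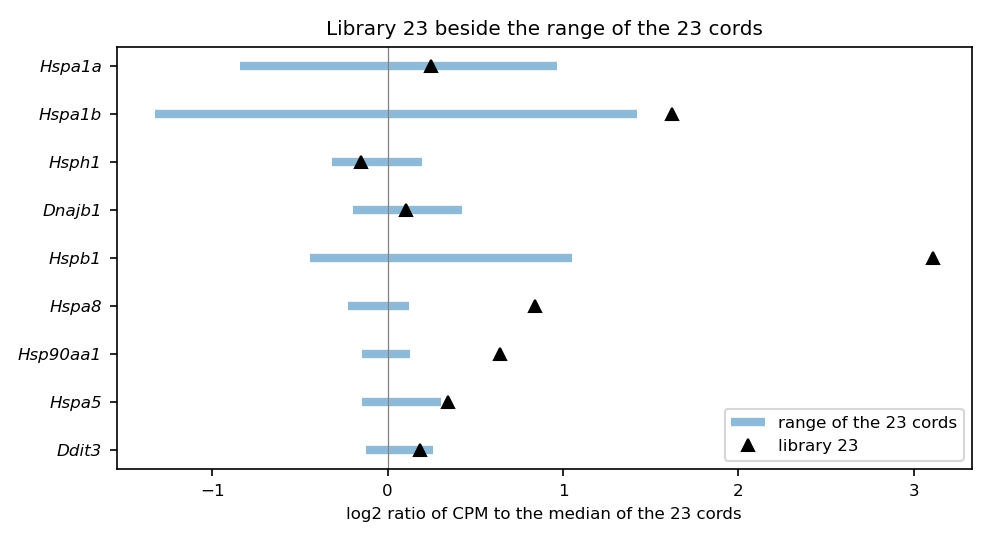
Log2 ratio of CPM to the median of the 23 cords (x axis) for each gene (y axis), with bars for the range of the cords and triangles for library 23. Hspb1 lies 3.11 above the median, and Hspa1b, Hspa8, Hsp90aa1 and Hspa5 also lie right of their bars.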

How the data were processed

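Lumbar cord RNA of 24 mice was sequenced. The authors deposited whole-number read counts per gene symbol and, per gene, a length of its summed exons. Per the file headers, exons of Ensembl GRCm38 release 96 were counted by gene name, with no option for strand, read pairs or reads of several places, so mates of a pair may have been counted separately. STAR and featureCounts 1.6.2 are named in the submitters' processing notes, and no version of STAR appears there. Groups came from the labels, and replicates are separate mice. Levels are CPM (counts scaled to a library total of 1000000), per kilobase where genes are compared.

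Tests used edgeR 4.0.16 (quasi-likelihood, TMM, filterByExpr, means of 8 groups) in R 4.3.3 on 23 libraries, with Benjamini-Hochberg adjustment over 25372 genes at 0.05, and were tested on simulated data. Library 23 was left out because earlier results of these data had shown it apart. Alternatives were all 24 libraries, RLE factors, library totals, no filter, DESeq2 1.42.0, limma voom (limma 3.58.1), a replicate block, a term for library numbers 1 to 12 against 13 to 24, and leaving out each library. Correlations used log2 CPM (TMM, prior count 2) as deviations from group means, without p. Those with marker sums were added after values were seen. Promoters of RefSeq (GRCm38.p6) were searched with python 3.11.15.

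The members and lists were chosen with earlier results of these data known. All 9 members are named. Of each pathway list the rule names genes called for paclitaxel (over all cords or in a genotype), knockout or sex, and allows up to 3 others with the smallest p, of which some are given. List genes called in males and in the interaction of sex and treatment were added afterwards, clock genes excepted. The 10 genes most like Hspa5 and most like the mean z of Hspa1a, Hspa1b, Hsph1, Dnajb1 and Hsp90aa1 are named. Genes named for a promoter match or as a marker of library 23 were named for that alone. Depth was 88812295 to 112158154 counts per library.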

Additional observations from a re-analysis of the deposited data

Results flagged for a closer look

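Within genotype and treatment groups of 5 or 6 cords, 36 sets of values were examined for a single library far from the others, and 5 stood apart. The rule flags about 1 in 20 sets of independent, normally distributed values. These sets pool both sexes, and the members vary together, so that rate need not hold here. The share of other genes that the rule flags was not computed, so no excess in the members can be read from the count. All flagged values came from male cords. Hspa1a was 2.81 CPM in knockout male vehicle replicate 2, where the next knockout vehicle cord had 1.68. Hspa5 was 293 CPM in that same mouse, where the next had 240.1. Hsph1 was lowest, 223.9 CPM, in wild-type male paclitaxel replicate 3, where the next wild-type paclitaxel cord had 276. Hspa8 was 1661 CPM in wild-type male paclitaxel replicate 1, where the next had 1463. Hspb1 was 14.5 CPM in wild-type male vehicle replicate 2, where the next wild-type vehicle cord had 11.7.

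Library 23, which was left out of the comparisons of the 23 cords, held 5 members above all 12 vehicle cords. The same 5 lay above all 23 cords, as did 30.2% of 15872 genes with a mean of at least 1 CPM. The share of genes above the vehicle cords alone was not computed. Hspb1 was 102.5 CPM against at most 16.1, Hspa8 2764 against at most 1619.9, Hsp90aa1 2025 against at most 1380.5, Hspa5 301.6 against at most 293 and Hspa1b 3.75 against at most 3.27.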

How the results depend on the processing

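Calls among all genes depended on the processing, and the cause was not tested. With all 24 libraries the called genes were 0 for paclitaxel over all animals, in knockout, in females and in males, 1 for the knockout under vehicle, 0 under paclitaxel, 28 between the sexes, and 0 in the interactions of sex with treatment and with genotype. Library totals alone gave 3 for paclitaxel and 0 in females. Without the low count filter they were 338 for paclitaxel, 254 in wild-type, 470 in knockout, 371 in females, 2321 in males, 99 for the knockout, 111 under vehicle, 215 under paclitaxel, 749 between the sexes, and 366 (genotype and treatment), 2181 (sex and treatment) and 813 (sex and genotype) in the interactions. Only without the filter were members called in a fit of all 23 cords: 1 in males under paclitaxel (Hspb1 0.37, edgeR adjusted p = 5.85e-06), 3 between the sexes (Hsph1, Dnajb1, Hspb1), 1 in the interaction of sex and treatment and 1 in that of sex and genotype (both Hspb1). DESeq2 called 167 for paclitaxel, 4 in wild-type, 137 in knockout, 55 in females, 2592 in males, 5 for the knockout, 4 under vehicle, 3 under paclitaxel, 583 between the sexes, 2376 and 203 in the interactions of sex with treatment and genotype. Limma voom called 0 in females, 1 for the knockout under vehicle, 0 under paclitaxel and 0 for sex and genotype. With TMM factors the library 23 log2 ratio of Hsp90aa1 was 0.73.

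With the replicate block, 9 genes were called for paclitaxel, 63 in females, 0 for the knockout under paclitaxel and 1891 for sex and treatment, and 0 members. Same-numbered deviations had r from -0.31 to 0.35, with 22 of 77 pairs over 0.1, so the numbers were not taken as pairs, although 14 of 23 libraries correlated best with their own number, which is a hint from the data only.

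Leaving out 1 library at a time gave 2 to 62 called genes for paclitaxel, 0 to 4 in wild-type, 0 to 332 in knockout, 0 to 10 in females, 357 to 2841 in males, 3 to 5 for the knockout, 1 to 3 under vehicle, 0 to 2 under paclitaxel, 65 to 324 between the sexes, 0 to 1 for genotype and treatment, 248 to 2419 for sex and treatment and 1 to 51 for sex and genotype. Called members numbered 0 to 1 in males and in sex and treatment (Hspb1, without wild-type male paclitaxel replicate 3). Depth limits Hspa1a and Hspa1b most.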

Other observations

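Among clock genes, Ciart and Nr1d2, which encode repressors of the circadian feedback loop, were lower under paclitaxel over all cords, with log2 fold changes of -0.28 (SE 0.051) and -0.16 (SE 0.028; edgeR adjusted p = 0.0346 for both). Ciart and Cry2 were higher in males, by 0.22 (SE 0.051) and 0.13 (SE 0.030) on the log2 scale (edgeR adjusted p = 0.0311 and 0.0241). In knockout, Nr1d2 was lower under paclitaxel (log2 fold change -0.26, SE 0.039, edgeR adjusted p = 0.00862).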
